A study of Mus musculus with 20 samples.

Results

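Gas5, Snhg1, Snhg3, Snhg4, Snhg5, Snhg6, Snhg8, Snhg12 and Zfas1 are noncoding host genes of small nucleolar RNAs (snoRNAs), and their read counts were followed through ER stress in mouse motor neurons. They were chosen by name, as host genes whose spliced RNA is a known or likely target of decay coupled to translation, and make up 9 of the 24421 genes counted. All 9 were in the count tables, Zfas1 under its older symbol 1500012F01Rik, and all 9 passed the filter on low counts. The libraries came from NIP cells, labelled cranial motor neurons, and NIL cells, labelled spinal motor neurons, both differentiated from mouse embryonic stem cells. The names are made from the driver factors: Neurog2, Isl1 and Phox2a in NIP, and Neurog2, Isl1 and Lhx3 in NIL. At day 2 the cultures were given CPA (cyclopiazonic acid) at 20 µM, a blocker of SERCA, the pump that fills the ER with calcium. For each line there were 2 libraries of each of 5 groups: 0 h without CPA, 12 h with CPA, 12 h untreated, 36 h with CPA and 36 h untreated. The later times follow the sample titles, since another label gives 6 h and 12 h. The labels do not say whether the 2 libraries of a group came from separate cultures, so p-values measure the spread between these libraries, which may be technical.

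A snoRNA host gene is transcribed and spliced like an mRNA, and snoRNAs are trimmed out of its introns. Box C/D snoRNAs guide 2′-O-methylation and box H/ACA snoRNAs guide pseudouridylation, mainly of ribosomal RNA, as the snoRNA names Snord and Snora record. In several of these hosts the joined exons hold no long reading frame. Ribosomes that load on such an RNA stop early, upstream of exon junctions, which is the signal for nonsense-mediated decay. Gas5 is the textbook case: its spliced RNA is short-lived while translation runs and accumulates when translation is blocked. ER stress lowers translation through phosphorylation of eIF2α by the kinase PERK, and later recovery depends on the phosphatase subunit encoded by Ppp1r15a.

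In the GENCODE M21 annotation of GRCm38, Snhg12 lies at chr4:132308623-132311024 on the plus strand and Snhg1 at chr19:8723475-8726443 on the plus strand. Zfas1 lies at chr2:167062934-167065862 on the plus strand and Snhg5 at chr9:88521050-88522929 on the minus strand. Gas5 lies at chr1:161034422-161038539 on the plus strand, Snhg8 at chr3:123507552-123508404 on the minus strand, Snhg6 at chr1:9941959-9944118 on the minus strand and Snhg3 at chr4:132348014-132353686 on the minus strand. Snhg4 was placed from RefSeq at chr18:35553410-35558316. The reference tables place 30 snoRNA genes inside the 9 hosts. Gas5 and Snhg1 hold 8 each, Snhg12 holds 4, Zfas1 holds 3, Snhg3 and Snhg5 hold 2 each, and Snhg4, Snhg6 and Snhg8 hold 1 each.

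The reading frame that follows the first AUG was read from the GENCODE transcript linked to each RefSeq entry. It ended more than 50 bases upstream of 5 exon junctions in Snhg1, of 4 each in Snhg5 and Zfas1, of 3 each in Gas5 and Snhg12, and of 1 in Snhg6. These frames were 40 codons long in Snhg1, 3 in Snhg5, 17 in Zfas1, 14 in Gas5, 54 in Snhg12 and 53 in Snhg6. The linked Snhg3 transcript had no junction so placed, and the linked Snhg8 transcript is a single exon. Among the spliced transcripts with an AUG that the annotation gives these genes, 2 of 5 of Snhg3 and 2 of 2 of Snhg8 had such a junction, as did 24 of 25 of Gas5 and 15 of 18 of Snhg1. Such a junction was present in 72.7% of 14174 spliced noncoding transcripts with an AUG in the same annotation, so the feature is common among noncoding RNAs.

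The start regions of the hosts are shown for the members with the largest differences and for Gas5, so that the letters searched for can be seen. RefSeq promoters on GRCm38.p6 were matched for 7 of the 9 members, with 2 start sites for Gas5. Each line runs 5′ to 3′ along the gene from 50 bases before the annotated start to 50 bases from it on. Capitals mark TATAA on either strand (read as TTATA from the other strand) and a pyrimidine run that begins with C within 5 bases of the start, the form of a terminal oligopyrimidine start.
Snhg12, chr4:132308628-132308727, plus strand: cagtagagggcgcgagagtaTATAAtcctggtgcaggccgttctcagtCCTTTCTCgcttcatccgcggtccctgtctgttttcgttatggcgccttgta
Snhg1, chr19:8723437-8723536, plus strand: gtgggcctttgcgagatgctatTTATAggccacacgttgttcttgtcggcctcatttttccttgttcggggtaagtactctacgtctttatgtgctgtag
Zfas1, chr2:167062884-167062983, plus strand: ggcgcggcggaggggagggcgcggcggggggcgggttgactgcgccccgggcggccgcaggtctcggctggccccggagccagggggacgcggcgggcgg
Snhg5, chr9:88522848-88522947, minus strand: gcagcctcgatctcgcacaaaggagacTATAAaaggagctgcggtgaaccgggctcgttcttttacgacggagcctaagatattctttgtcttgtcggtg
Gas5, second start, chr1:161035116-161035215, plus strand: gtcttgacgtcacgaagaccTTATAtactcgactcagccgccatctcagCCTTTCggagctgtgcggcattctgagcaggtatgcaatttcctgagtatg
Snhg8, chr3:123508287-123508386, minus strand: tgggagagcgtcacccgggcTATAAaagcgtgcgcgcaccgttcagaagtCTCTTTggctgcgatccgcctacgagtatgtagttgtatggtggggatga

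TATAA on either strand began at −30 from the start in Snhg12, Snhg8 and the second start of Gas5, at −28 in Snhg1 and at −23 in Snhg5. In Snhg3 it lay at 22, downstream of the start, and it was absent from the 300 bases of Zfas1 and of the first Gas5 start. Of all 32851 promoters in the table, 24.9% held it. The pyrimidine run was found in Snhg12, Snhg8, Snhg3 and the second Gas5 start, against 18.3% of all promoters. The E-box CACGTG, the ATF4 core TGATGNAA and the ER stress element (by its usual consensus) were searched on both strands. None of them was in a member's 300 bases, while 7.15%, 3.97% and 0.119% of all promoters held them in that order. This says only that these letters are not in these windows.

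The 20 libraries held 7996454 to 30321152 gene reads, of which the 9 hosts together took 857 to 5482 reads. Rn45s, the ribosomal RNA precursor gene, took 5.18% to 38.6% of gene reads, and was highest in untreated NIP 36 h replicate 1 and CPA-treated NIL 36 h replicate 2. The 6 spinal motor neuron markers summed to 221 to 352 CPM in NIP against 458 to 984 CPM in NIL, and 6 cranial markers to 817 to 1566 CPM in NIP against 209 to 358 CPM in NIL. Both lists include the driver factors Isl1 and Neurog2. The spinal list also holds Lhx3 and the cranial list Phox2a, so these sums are no independent check of cell identity. No marker in any of these lists was at 0 in every library. Hspa5, which encodes the ER chaperone BiP, rose 9.35-fold at 12 h and 4.10-fold at 36 h in NIP, and 9.07-fold and 4.54-fold in NIL. Libraries of replicate set 2 held more marker RNA of pluripotent stem cells than those of set 1. The 10 pluripotent stem cell markers summed to 38.8 to 115 CPM in set 2 against 12.4 to 19.7 CPM in set 1 of NIP, and to 265 to 684 CPM in set 2 against 44.9 to 171 CPM in set 1 of NIL.

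Levels are given as CPM, read counts scaled to TMM-adjusted library sizes. Without CPA, Gas5 was the most read of the 9 hosts, with a median of 34.8 CPM over 12 libraries, followed by Snhg5 at 13.6, Snhg1 at 13.5, Zfas1 at 10.5, Snhg8 at 6.59, Snhg6 at 5.33, Snhg12 at 4.99, Snhg3 at 3.65 and Snhg4 at 2.90 CPM. Per kilobase of the linked transcript, the median level without CPA was highest for Snhg1, at 22.4 CPM per kb, followed by Zfas1 at 14.2, Gas5 at 13.6, Snhg5 at 13.5 and Snhg6 at 13.3. Snhg8, Snhg3 and Snhg12 lay close together at 8.49, 8.35 and 8.23 CPM per kb, and Snhg4 had no transcript length in the tables. The linked transcript is 1 of several per gene, so these values order the hosts only roughly. For Gas5 it has 4 exons over 2556 bases, the longest of those used, and a shorter transcript would place Gas5 higher. For Snhg8 it is a single exon of 776 bases. Counts behind single values ran from 20 reads for Snhg4 to 1802 for Gas5, and the 2 libraries of low hosts such as Snhg3 (35 to 125 reads) carry the largest counting error.

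**Figure D1:**
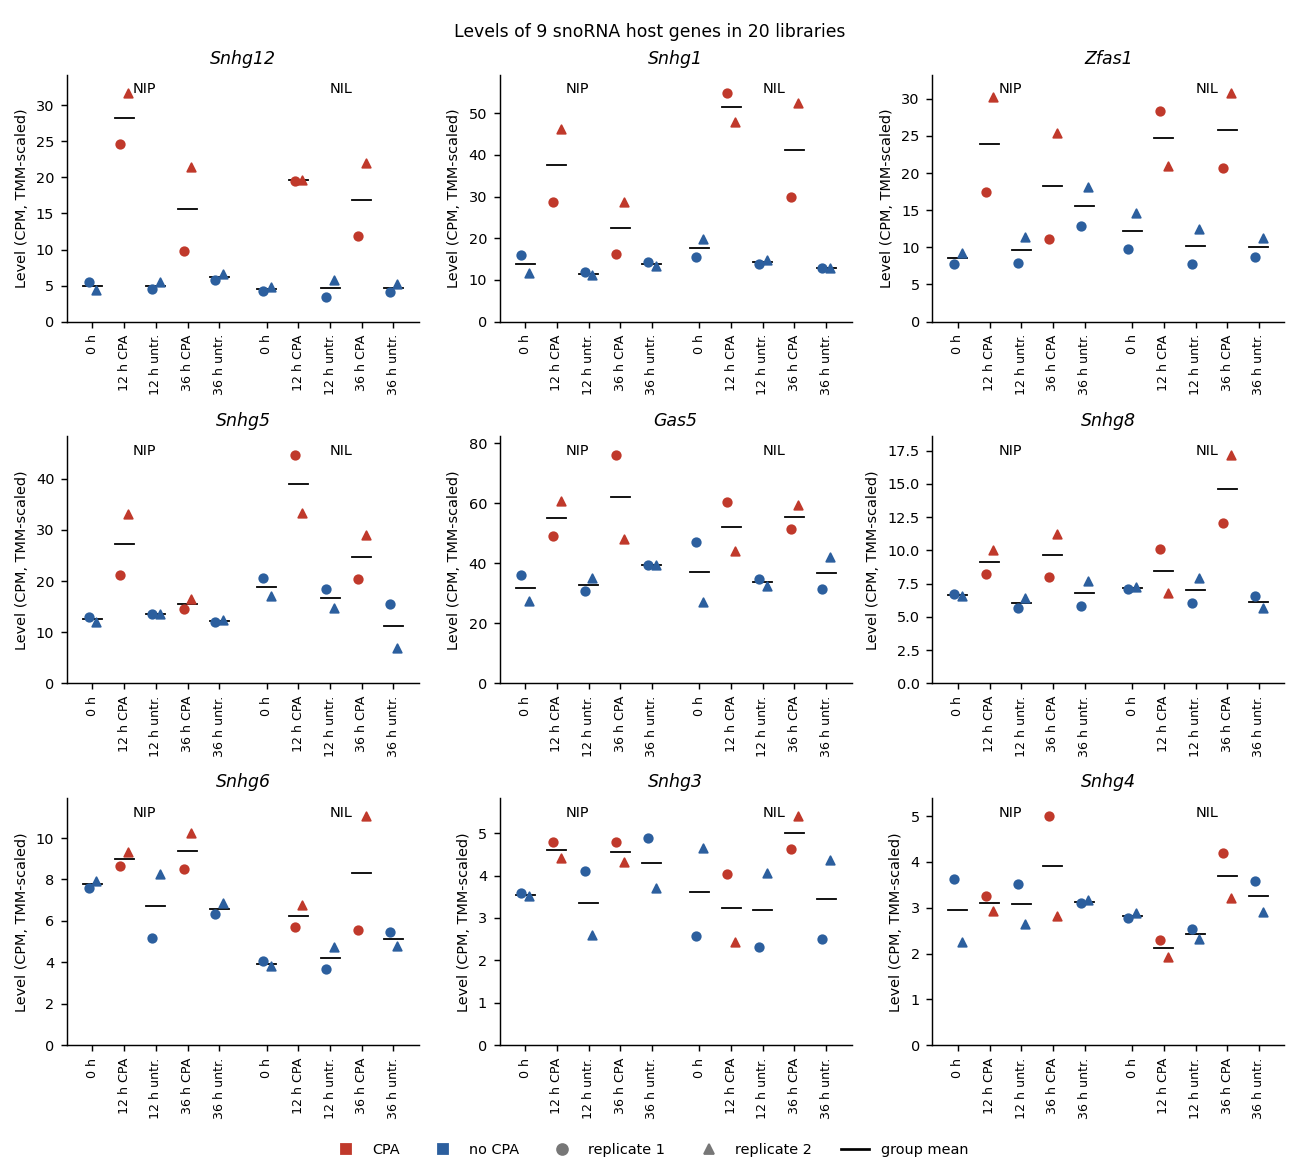
Level of each host gene (y axis, TMM-scaled CPM, from 0) in each of the 20 libraries by line, time and CPA (x axis), with circles for replicate 1, triangles for replicate 2 and a bar for the mean of the 2. The CPA libraries of Snhg12 lie between 9.81 and 31.7 CPM, above all 12 libraries without CPA, which end at 6.56 CPM, whereas the CPA and untreated libraries of Snhg4 mix.

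The first question was which of these hosts changed with CPA. Snhg12 and Snhg1 rose after 12 h in NIP and after 12 h and 36 h in NIL, by 3.20- to 5.65-fold, and no host fell in any of the 4 comparisons. Zfas1 and Snhg5 stood 2.00- to 2.58-fold higher in the same 3 comparisons; they missed the threshold in the edgeR fit without the replicate number as a block and passed with it. DESeq2 called Snhg5 in all 3 and Zfas1 at 12 h in NIP and 36 h in NIL. In either direction it called 7.78% of all genes at 12 h in NIP, and 4.79% and 4.81% at 12 h and 36 h in NIL. Gas5 stood 1.51- to 1.67-fold higher in all 4 comparisons and passed in neither fit. The test was edgeR's quasi-likelihood test over 14792 genes, with Benjamini-Hochberg adjusted p-values. It called 2 of the 9 hosts higher at 12 h and 0 at 36 h in NIP, and 2 at 12 h and 2 at 36 h in NIL. The share of all tested genes called higher was 2.96%, 1.33%, 1.55% and 0.439% in those comparisons. With the block, 4 hosts at 12 h and 1 at 36 h in NIP, and 4 at 12 h and 5 at 36 h in NIL were called higher, against 7.54%, 5.10%, 4.16% and 7.25% of all genes. Beside the 0 in NIP at 36 h, 3 hosts had an unadjusted p below 0.05, against 13.5% of all genes. DESeq2 called 1 host there, Snhg12, against 4.74% of all genes called in either direction. In bulk RNA, a change in the share of cells of a type and a change of RNA per cell cannot be told apart.

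**Figure D2:**
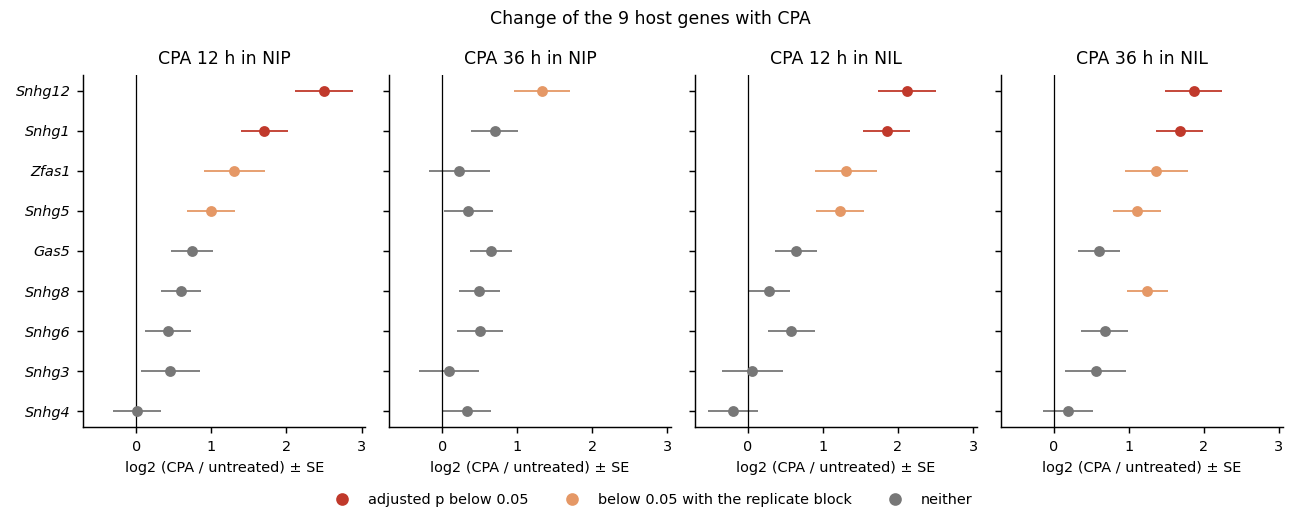
Log2 change of each host with CPA (x axis, points, with the standard error as bars) in the 4 comparisons, red for adjusted p below 0.05, orange where, of both edgeR fits, it was below 0.05 only with the replicate block. Snhg12 and Snhg1 lead in each panel, and Snhg4 is last in 3 of the 4.

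Snhg12, which holds the H/ACA genes Snora61, Snora16a and Snora44 and the C/D gene Snord99, had the largest change of the 9 hosts in each comparison. In NIP at 12 h it had 24.7 and 31.7 CPM with CPA, against 4.50 and 5.48 CPM untreated. At 36 h in NIP it had 9.81 and 21.5 CPM with CPA, against 5.84 and 6.56 CPM untreated. In NIL it had 19.5 and 19.6 CPM with 12 h of CPA, against 3.43 and 5.80 CPM untreated, and 11.9 and 21.9 CPM with 36 h of CPA, against 4.12 and 5.15 CPM untreated. The CPA and untreated libraries did not overlap in any of the 4 comparisons, and replicate 1 was the lower of the CPA libraries each time. At 0 h, before CPA, it had 5.48 and 4.42 CPM in NIP and 4.21 and 4.83 CPM in NIL, within the range of the untreated later libraries. The log2 changes were 2.50 ± 0.38 (SE; adjusted p = 0.00273) and 1.33 ± 0.37 (adjusted p = 0.0948, or 0.00651 with the block) at 12 h and 36 h in NIP, and 2.12 ± 0.39 (adjusted p = 0.0101) and 1.87 ± 0.38 (adjusted p = 0.0464) in NIL, by edgeR. In NIP at 12 h, 99.0% of tested genes had a smaller log2 change.

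Snhg1, which holds Snord22 among its 8 snoRNA genes, followed in each comparison. In NIP it had 28.7 and 46.2 CPM with 12 h of CPA, against 11.9 and 11.1 CPM untreated. In NIL it had 54.9 and 47.9 CPM with 12 h of CPA, against 13.8 and 14.9 CPM untreated, and 29.9 and 52.5 CPM with 36 h of CPA, against 12.8 and 12.8 CPM untreated. The untreated pairs lay close together while the CPA pairs at NIP 12 h and NIL 36 h spread widely, and none overlapped. In NIP at 36 h the values were 16.2 and 28.6 CPM with CPA, against 14.2 and 13.3 CPM untreated, so replicate 1 barely differed. At 0 h Snhg1 had 15.9 and 11.6 CPM in NIP and 15.5 and 19.7 CPM in NIL. Its log2 changes by edgeR were 1.70 ± 0.31 (SE; adjusted p = 0.00812) and 0.70 ± 0.31 (adjusted p = 0.341) at 12 h and 36 h in NIP, and 1.85 ± 0.32 (adjusted p = 0.00708) and 1.68 ± 0.32 (adjusted p = 0.0360) in NIL.

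By edgeR with the block, adjusted p in the 3 called comparisons was 1.66e-05 to 0.00106 for Snhg12 and 0.000527 to 0.00184 for Snhg1. Single libraries were not left out of that fit. In the fit without the block, to which the values below belong, these calls sit near the threshold. With CPA replicate 2, untreated replicate 1 or untreated replicate 2 left out in turn, Snhg1 had an adjusted p of 0.0788 to 0.0881 in NIP at 12 h and both genes had 0.126 to 0.478 in NIL at 36 h. In NIL at 12 h Snhg1 had 0.0565 to 0.0722 without CPA replicate 1, untreated replicate 1 or untreated replicate 2, and Snhg12 had 0.0561 to 0.116 without either CPA library or untreated replicate 1. In NIP at 12 h Snhg12 had 0.0612 without untreated replicate 1, and at 36 h it passed, at 0.0407, without CPA replicate 1. The log2 changes without 1 library ran from 1.24 to 2.68 over those 3 called comparisons and both genes. In NIL at 36 h both calls were also lost without TMM factors (adjusted p = 0.135 and 0.166 for Snhg1 and Snhg12). Of all tested genes 10 were called there without these factors, against 141 with them. The fit without the 2 libraries highest in Rn45s left 1 library with 36 h of CPA in NIL. Over all alternatives other than single libraries left out, the lowest log2 change there was 1.24 for Snhg1 and 1.39 for Snhg12.

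Zfas1, the host of Snord12 and transcribed opposite the start of Znfx1, came next. In NIP it had 17.5 and 30.2 CPM with 12 h of CPA, against 7.95 and 11.4 CPM untreated, and 11.2 and 25.5 CPM with 36 h of CPA, against 12.9 and 18.2 CPM untreated. In NIL it had 28.4 and 21.0 CPM with 12 h of CPA, against 7.81 and 12.4 CPM untreated, and 20.7 and 30.8 CPM with 36 h of CPA, against 8.72 and 11.3 CPM untreated. The groups overlapped in NIP at 36 h and nowhere else. Its log2 change was 1.31 ± 0.41 (SE) at 12 h in NIP, 1.31 ± 0.41 at 12 h in NIL and 1.37 ± 0.42 at 36 h in NIL, with adjusted p = 0.0965, 0.145 and 0.131 by edgeR. With the block these became 0.00285, 0.00324 and 0.00407, and by DESeq2 0.0359, 0.0511 and 0.0335. In NIP at 36 h the log2 change was 0.23 ± 0.41 (adjusted p = 0.858), and without CPA replicate 2 it was −0.48.

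Snhg5, the host of Snord50a and Snord50b, had 21.3 and 33.1 CPM with 12 h of CPA in NIP, against 13.6 and 13.6 CPM untreated, and 14.5 and 16.5 CPM with 36 h of CPA, against 11.9 and 12.4 CPM untreated. In NIL it had 44.7 and 33.3 CPM with 12 h of CPA, against 18.5 and 14.7 CPM untreated, and 20.4 and 29.0 CPM with 36 h of CPA, against 15.6 and 6.91 CPM untreated. Every CPA library was above its untreated pair, and the lowest value was in untreated NIL 36 h replicate 2. The log2 change was 1.00 ± 0.32 (SE) at 12 h in NIP, 1.23 ± 0.32 at 12 h in NIL and 1.11 ± 0.33 at 36 h in NIL, with adjusted p = 0.104, 0.0721 and 0.119 by edgeR and 0.0313, 0.0182 and 0.0238 with the block. By DESeq2 the adjusted p was 0.0466, 0.0111 and 0.0318. In NIP at 36 h it was 0.35 ± 0.32 (adjusted p = 0.714).

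Gas5, the growth arrest-specific host of 8 snoRNA genes, had 49.1 and 60.9 CPM with 12 h of CPA in NIP, against 30.8 and 35.0 CPM untreated, and 76.2 and 48.0 CPM with 36 h of CPA, against 39.3 and 39.6 CPM untreated. In NIL it had 60.4 and 44.1 CPM with 12 h of CPA, against 34.6 and 32.6 CPM untreated, and 51.6 and 59.6 CPM with 36 h of CPA, against 31.3 and 42.2 CPM untreated. Both CPA libraries lay above both untreated ones in all 4 comparisons. At 0 h it had 36.0 and 27.5 CPM in NIP and 47.2 and 27.2 CPM in NIL, and the higher of these exceeded the CPA value of 44.1 CPM in NIL 12 h replicate 2. Its log2 changes were 0.74 ± 0.28 and 0.66 ± 0.28 (SE) at 12 h and 36 h in NIP, and 0.63 ± 0.28 and 0.60 ± 0.28 in NIL, with adjusted p of 0.175 to 0.336 by edgeR and 0.0603 to 0.152 with the block. The lowest 95% limit among these changes was −0.01 and the highest 1.34.

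Snhg8, the host of Snora24, had 12.1 and 17.2 CPM with 36 h of CPA in NIL, against 6.58 and 5.64 CPM untreated, the comparison with its largest change. Its log2 change there was 1.25 ± 0.28 (SE; adjusted p = 0.0526 by edgeR, 0.00496 with the block, and 0.0314 without CPA replicate 1). In the other 3 comparisons it was 0.28 to 0.60, with adjusted p of 0.277 to 0.780. Snhg6, the host of the box C/D gene Snord87, had log2 changes of 0.42 to 0.68 (adjusted p of 0.285 to 0.562), and in NIL at 36 h its CPA libraries stood at 5.58 and 11.0 CPM, against 5.46 and 4.77 CPM untreated. Snhg3, the host of Snora73a and Snora73b, had changes of 0.06 to 0.56 (adjusted p of 0.493 to 0.986) at levels of 2.31 to 5.39 CPM over all libraries. Snhg4, the host of Snora74a, had changes of −0.20 to 0.33 (adjusted p of 0.737 to 0.999) at 1.93 to 4.99 CPM. For Snhg3 and Snhg4 the 95% limits reached from −0.93 to 1.44, so sizeable changes in either direction remain within the error.

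Over the 9 hosts, 9 changes were positive at 12 h and 9 at 36 h in NIP, and 8 and 9 in NIL, with Snhg4 the exception at 12 h in NIL. Of all tested genes, 48.9% and 53.0% had a positive change in NIP, and 46.3% and 50.8% in NIL. The median log2 change of the hosts was 0.74 and 0.49 in NIP and 0.63 and 1.11 in NIL. The median of all tested genes was −0.01 and 0.03 in NIP and −0.03 and 0.01 in NIL. Both CPA libraries were above both untreated libraries for 8 and 6 hosts in NIP and for 6 and 8 hosts in NIL, at 12 h and 36 h. The share of all tested genes so placed was 27.1% and 20.9% in NIP, and 17.8% and 21.0% in NIL. Within replicate sets, CPA was higher than untreated in both sets for 8 hosts at 12 h and 6 at 36 h in NIP, and for 6 at 12 h and 9 at 36 h in NIL. The share of all genes higher in both sets was not computed, so these counts have no background beside them.

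**Figure D3:**
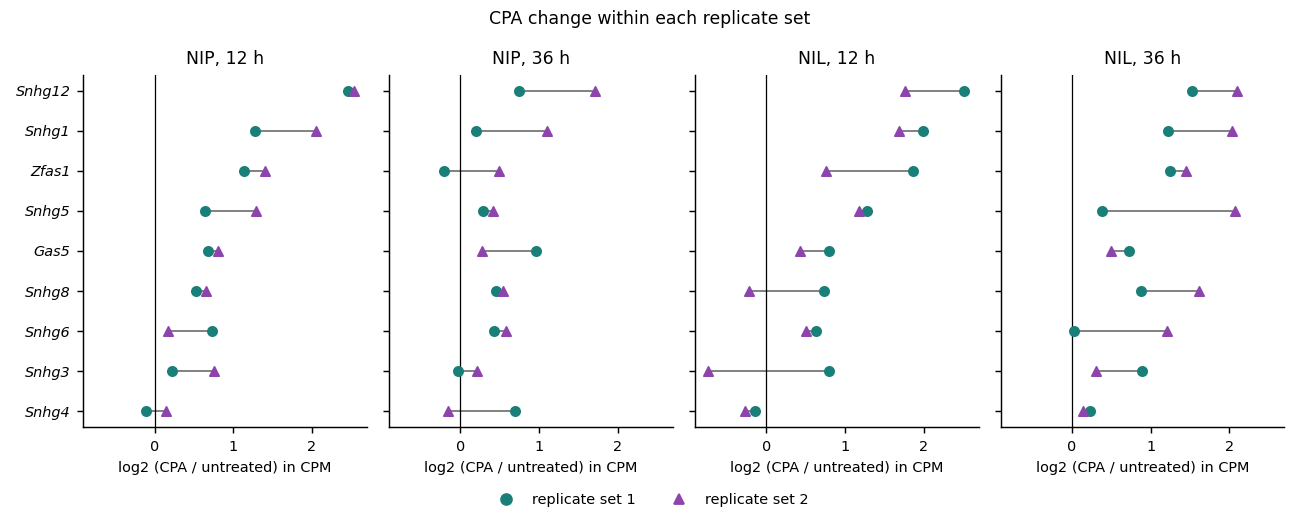
Log2 ratio of the CPA to the untreated library within replicate set 1 (circles) and set 2 (triangles) for each host (y axis), one panel per line and time. Snhg12 is at 0.75 or above in both sets of every panel, while Snhg3 and Snhg8 take opposite signs in the 2 sets of NIL at 12 h.

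The 2 sets differed in size of change. In NIP at 36 h Snhg1 changed by 0.19 in set 1 and 1.10 in set 2, and Snhg12 by 0.75 and 1.71. In NIL at 12 h the order was the other way, with 2.00 and 1.69 for Snhg1, and 2.51 and 1.76 for Snhg12. In NIL at 36 h Snhg5 changed by 0.38 in set 1 and 2.07 in set 2. Across groups, set 2 was higher than set 1 in Zfas1 (log2 difference 0.50 ± 0.12, SE; adjusted p = 0.00216) and in Snhg12 (0.40 ± 0.12; adjusted p = 0.0136), and lower in Snhg4 (−0.31 ± 0.12; adjusted p = 0.0478), by edgeR with the block. Markers of other cells moved with CPA in some of these groups. In NIL the endoderm and endothelium list (10 of 10 genes tested) summed to 14907 and 31925 CPM with 36 h of CPA, against 5172 and 17915 CPM untreated, and 10 of its genes had a positive change, with 0 passing the test in either fit. At 12 h in NIL its sums were 5313 and 16420 CPM with CPA, against 4441 and 10436 CPM untreated. In NIP at 36 h they were 421 and 8097 CPM with CPA, against 644 and 3444 CPM untreated, so set 2 was higher with CPA and set 1 lower. The pluripotent stem cell list summed to 171 and 684 CPM with 36 h of CPA in NIL, against 50.1 and 355 CPM untreated, with 0 of 10 genes called higher, or 1 with the block. The same list summed to 12.7 and 115 CPM with 36 h of CPA in NIP, against 12.4 and 42.5 CPM untreated. The 6 pan-neuronal markers summed to 3010 to 4642 CPM with CPA in NIP, against 4815 to 5930 CPM without, and to 1401 to 2934 CPM with CPA in NIL, against 3012 to 4981 CPM without. Of these 6, 0 were called lower at 12 h and 0 at 36 h in NIP, and 0 and 1 in NIL, or 3 and 1 in NIP and 4 and 5 in NIL with the block. Of all 14792 tested genes, the block called 967 and 762 lower in NIP, and 558 and 1624 in NIL. Without it 696 and 344 genes in NIP, and 327 and 141 in NIL, were called in either direction. The part of these shifts in the host genes' changes was not tested.

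Whether the lines or times differed in the CPA response was tested as a difference of changes. No host passed for NIP against NIL at 12 h or at 36 h, or for 36 h against 12 h in either line, in the fit with or without the block, or by DESeq2. Among all genes 0% and 0% were called for the lines at 12 h and 36 h, and 0.0135% and 0.00676% for the times in NIP and NIL. With the block these shares were 0% and 0.128%, and 1.09% and 0.108%. At an unadjusted p below 0.05 there were 0 and 1 hosts for the lines, against 2.36% and 4.40% of all genes. For the times there were 2 and 1 hosts in NIP and NIL, against 5.73% and 4.20% of all genes. At 36 h Snhg1 had a change of 0.70 in NIP against 1.68 in NIL, a difference of −0.98 (95% limits −1.92 and −0.03), and Zfas1 a change of 0.23 in NIP against 1.37 in NIL, a difference of −1.14 (−2.39 and 0.11). In NIP the change of Snhg12 at 36 h minus that at 12 h was −1.17 (−2.29 and −0.05), and that of Snhg1 was −1.001 (−1.94 and −0.06). In NIL this difference was 0.97 for Snhg8 (0.13 and 1.80). Adjusted p for these 5 differences was 0.837 to 1.00 by edgeR and 0.157 to 0.429 with the block.

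Without CPA, the question was whether the lines carry these RNAs at different levels. At 0 h Snhg6 had the largest difference of the 9 hosts, with 7.59 and 7.94 CPM in NIP, against 4.08 and 3.81 CPM in NIL. These libraries did not overlap, but neither did those of other hosts, such as Snhg5 at 0 h and Zfas1 at 36 h. The share of all genes so placed was not computed. For Snhg6 at 0 h the log2 difference was 0.97 ± 0.31 (SE; adjusted p = 0.0597 by edgeR and 0.0113 with the block). At 12 h untreated it had 5.19 and 8.27 CPM in NIP, against 3.67 and 4.76 CPM in NIL (log2 difference 0.69, adjusted p = 0.191), and at 36 h 6.31 and 6.88 CPM in NIP, against 5.46 and 4.77 CPM in NIL (0.36, adjusted p = 0.502). Without the block 0 hosts passed at any time, while 12.5%, 12.0% and 11.6% of all genes were called at 0 h, 12 h and 36 h. With the block 1, 0 and 0 passed, against 26.3%, 27.9% and 28.8% of all genes. At an unadjusted p below 0.05 there were 1, 1 and 0 hosts, against 24.5%, 25.0% and 26.2% of all genes. DESeq2 called Snhg6 at 0 h and no other host, against 15.2%, 15.5% and 15.9% of all genes at 0 h, 12 h and 36 h.

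**Figure D4:**
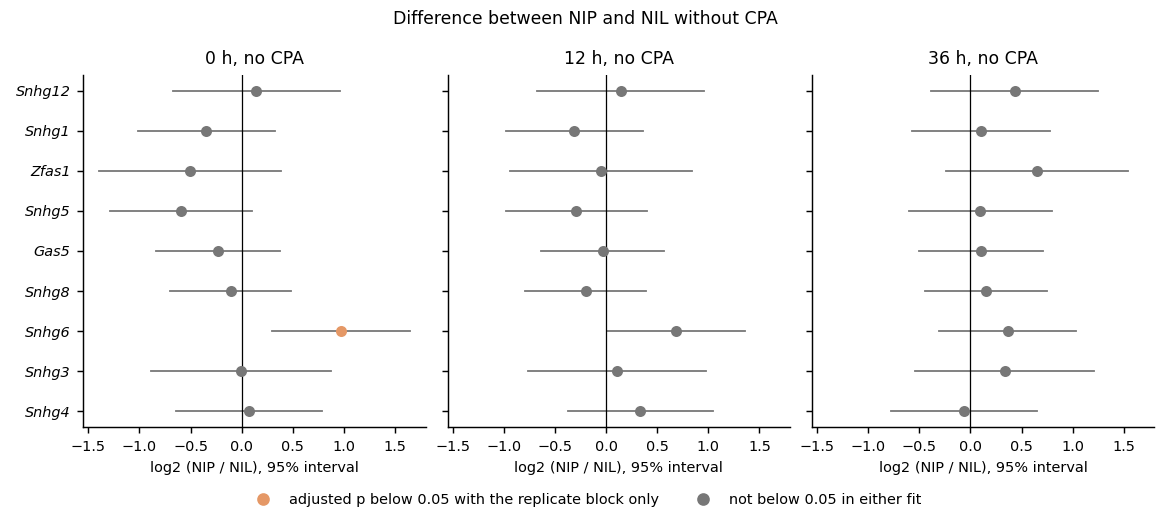
Log2 difference between NIP and NIL without CPA (x axis, points, with 95% intervals as lines) for each host at 0 h, 12 h and 36 h, orange where the adjusted p was below 0.05 with the replicate block. The interval of Snhg6 at 0 h runs from 0.30 to 1.65, and those of the other hosts at 0 h include 0.

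The other 8 hosts differed between lines by −0.59 to 0.65 on the log2 scale over the 3 times. At 0 h Snhg5 had 13.0 and 12.0 CPM in NIP, against 20.6 and 17.0 CPM in NIL, a log2 difference of −0.59 (95% limits −1.29 and 0.10; adjusted p = 0.280). At 36 h untreated Zfas1 had 12.9 and 18.2 CPM in NIP, against 8.72 and 11.3 CPM in NIL, a log2 difference of 0.65 (−0.24 and 1.54; adjusted p = 0.349). Gas5, Snhg3 and Snhg8 differed by at most 0.33 in size at each time, and all their limits lay within −0.88 and 1.21. Intervals of this width do not show equal levels.

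Over untreated time no host passed the test in either fit, or by DESeq2. The background was as low in most of these comparisons: 0% of all genes were called at 12 h against 0 h in each line, 1.29% at 36 h against 0 h in NIP and 0.0270% in NIL. With the block they were 0% at 12 h in each line, and 9.10% and 0.940% at 36 h. At an unadjusted p below 0.05, 0 hosts stood at 12 h in either line, against 2.37% of all genes in NIP and 0.804% in NIL. At 36 h 0 stood in NIP, against 14.7% of all genes, and 1 in NIL, against 5.78%. That host was Snhg5, which in NIL had 20.6 and 17.0 CPM at 0 h, 18.5 and 14.7 CPM at 12 h and 15.6 and 6.91 CPM at 36 h, a log2 change of −0.73 from 0 h (95% limits −1.42 and −0.03; adjusted p = 0.834). Zfas1 in NIP had 7.81 and 9.29 CPM at 0 h, 7.95 and 11.4 CPM at 12 h and 12.9 and 18.2 CPM at 36 h, a log2 change of 0.87 from 0 h (−0.03 and 1.76; adjusted p = 0.356, or 0.0637 with the block).

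Only 10 of the 30 snoRNA genes inside the hosts had a row in the tables, and 8 passed the filter. HTSeq by default drops a read that falls on both a host exon and a snoRNA gene, so these rows measure snoRNA levels poorly. Snora74a, inside Snhg4, had 34 to 1080 reads and Snord22, inside Snhg1, 50 to 897 reads. The other 6 that were tested had at most 94. None of the 8 was called in any CPA comparison in either fit. Snord22 had 2.78 and 4.45 CPM with 12 h of CPA in NIP, against 4.01 and 4.18 CPM untreated, while its host Snhg1 rose 3.26-fold. In NIL at 12 h Snord22 had 37.6 and 4.60 CPM with CPA, against 11.2 and 12.2 CPM untreated, so that its 2 CPA libraries lay on both sides of the untreated ones. In Snhg12, Snora61 changed by −0.07 ± 0.94 (log2, SE) at 12 h in NIP and by −0.31 ± 0.90 in NIL. Standard errors of this size hide a large change either way.

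Protein-coding genes that overlap a host or lie within 5000 bases of it were read in the same way. Slc3a2, which encodes the heavy chain of amino acid transporters and is a target of the stress factor ATF4, lies 106 bases from Snhg1 on the opposite strand. It rose in all 4 comparisons, by log2 changes of 1.22 ± 0.27 (SE; adjusted p = 0.0202) and 1.98 ± 0.28 (0.00356) at 12 h and 36 h in NIP, and 2.13 ± 0.28 (0.00128) and 1.66 ± 0.27 (0.0222) in NIL, by edgeR. In NIP at 36 h Slc3a2 thus rose 3.94-fold where Snhg1 stood 1.63-fold higher without passing. Reads of overlapping genes on opposite strands may not have been told apart, since the strand setting of the counting is not given in the sources used here.

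**Figure D5:**
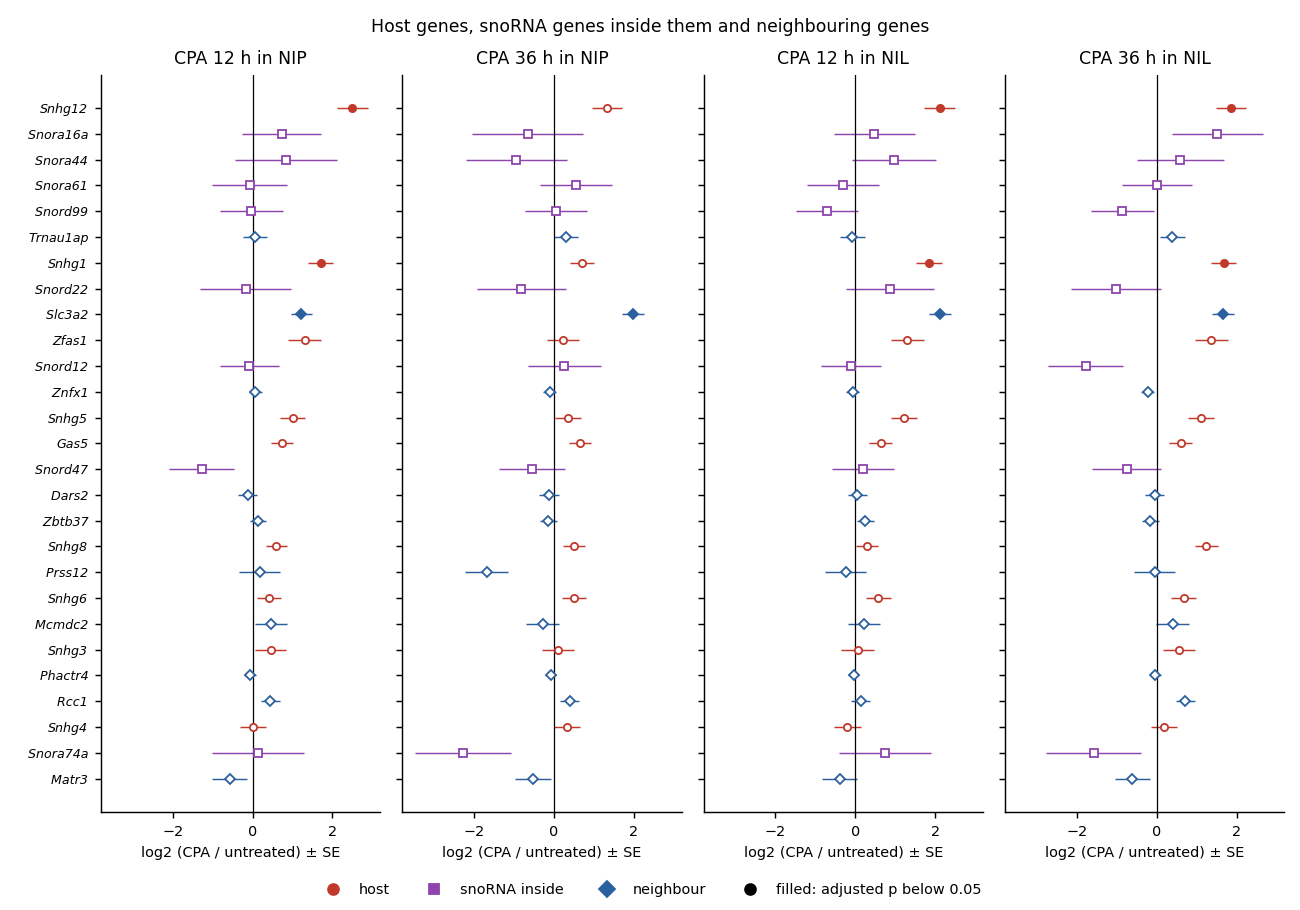
Log2 change with CPA (x axis, standard error as bars) of each host (circles), the tested snoRNA genes inside it (squares) and its protein-coding neighbours (diamonds), filled where the adjusted p was below 0.05. Slc3a2 beside Snhg1 is the one neighbour with filled points, from 1.22 to 2.13.

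The other 9 neighbours were not called in any CPA comparison without the block. Trnau1ap, 739 bases from Snhg12 and on the other strand, changed by 0.06 and 0.30 at 12 h and 36 h in NIP and by −0.08 and 0.39 in NIL, where Snhg12 changed by 2.50, 1.33, 2.12 and 1.87. Znfx1, which overlaps Zfas1 on the opposite strand, changed by 0.07 and −0.10 in NIP and −0.07 and −0.22 in NIL. Zbtb37, which overlaps Gas5 on the opposite strand, changed by 0.13 and −0.14 in NIP and 0.25 and −0.16 in NIL. Rcc1, which encodes the exchange factor of the GTPase Ran and shares strand and bases with Snhg3, changed by 0.45 and 0.40 in NIP and 0.14 and 0.71 in NIL, and passed with the block in NIL at 36 h (adjusted p = 0.0146). Reads of Snhg3 and Rcc1 cannot be separated where they overlap. With the block, Matr3 beside Snhg4 was lower in NIL at 36 h (log2 change −0.62, adjusted p = 0.0398) and Prss12 beside Snhg8 lower in NIP at 36 h (−1.78, adjusted p = 0.0230).

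Other genes of the same class and of the decay pathway give the setting. Of 14 tested noncoding snoRNA hosts outside the 9 (15 listed), 1 was called higher at 12 h and 0 at 36 h in NIP, and 1 and 0 in NIL, all of it Snhg17. With the block 5 and 2 were higher in NIP, and 4 and 6 in NIL, with 1 lower in NIL at 36 h. Snhg17 rose 2.01-fold at 12 h in NIP (log2 change 1.01 ± 0.25, SE; adjusted p = 0.0392) and 3.03-fold at 12 h in NIL (1.60 ± 0.26; adjusted p = 0.00529). At 36 h its adjusted p was 0.159 in NIP and 0.0885 in NIL, or 0.04997 and 0.0126 with the block. The median log2 change of these 14 hosts was 0.61 and 0.23 in NIP and 0.43 and 0.86 in NIL. The 39 protein-coding snoRNA hosts, mostly ribosomal protein and translation genes, had medians of 0.16 and 0.29 in NIP and −0.03 and 0.48 in NIL. Of these, 2 were called higher and 1 lower at 12 h and 2 higher at 36 h in NIP, and 2 and 1 higher in NIL. With the block 2 were higher and 2 lower at 12 h and 3 higher and 1 lower at 36 h in NIP, and 2 and 3 at 12 h and 13 and 2 at 36 h in NIL. Of all 14792 tested genes, the block called 1116 higher and 967 lower at 12 h and 755 and 762 at 36 h in NIP. In NIL it called 616 and 558 at 12 h and 1073 and 1624 at 36 h. Tars, a threonyl-tRNA synthetase, and Hspa9, a mitochondrial chaperone, made up the higher calls without the block, with log2 changes of 1.31 and 1.01 at 12 h in NIP. Eif4a2, an RNA helicase of translation initiation, was the lower one (−0.83, adjusted p = 0.0351), and at 36 h in NIP it passed with the block (−0.55, adjusted p = 0.04997, against 0.248 without it).

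Of 21 nonsense-mediated decay factors, Nbas was the one called, at log2 changes of 1.00 ± 0.20 (SE; adjusted p = 0.0131) at 12 h in NIP and 0.97 ± 0.20 (adjusted p = 0.0216) at 12 h in NIL, and none was called at 36 h without the block. With the block Nbas also passed at 36 h in NIP (0.63, adjusted p = 0.0420, against 0.141 without it). The median change of this list was 0.18 and −0.04 in NIP and 0.09 and 0.13 in NIL. Of 17 tested mRNA decay enzymes, Dis3, a catalytic subunit of the RNA exosome, was the one called without the block, at 1.91 ± 0.17 (adjusted p = 9.60e-05) at 12 h in NIP and 1.05 ± 0.16 (adjusted p = 0.00459) at 12 h in NIL. With the block Dis3 also passed at 36 h in NIP (0.67, adjusted p = 0.00537), and Pan2, the catalytic subunit of a poly(A) nuclease, passed at 12 h in NIP (0.77, adjusted p = 0.00185), at 12 h in NIL (0.58, adjusted p = 0.0204) and at 36 h in NIL (0.53, adjusted p = 0.0221). Of 18 tested snoRNP proteins and assembly factors none was called in either fit, with medians of 0.05 and 0.17 in NIP and −0.07 and 0.17 in NIL. Of 26 mRNAs used in the field as decay targets, 7 rose and 1 fell at 12 h and 5 rose at 36 h in NIP, and 7 and 5 rose in NIL, among them the stress factors Atf4 and Ddit3 in all 4 comparisons. With the block 9 rose and 1 fell at 12 h and 8 rose and 1 fell at 36 h in NIP, and 7 rose at 12 h and 11 rose and 2 fell at 36 h in NIL. Atf4, Ddit3, Atf3 and Chac1 are in both this list and the stress response list. Of 20 integrated stress response genes, 15 and 16 rose in NIP and 16 and 11 in NIL (16 and 18, and 18 and 17, with the block), with medians of 1.76 and 2.48 in NIP and 2.83 and 1.99 in NIL. Ppp1r15a, the phosphatase subunit that restores translation, rose 13.0-fold at 12 h and 5.43-fold at 36 h in NIP, and 7.08-fold and 3.29-fold in NIL.

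The 9 hosts did not share 1 pattern over the 10 groups. The Pearson correlation of a host's group means with the mean of the other 8, each on a log2 scale, was 0.95 for Snhg12, 0.94 for Zfas1, 0.93 for Gas5, 0.89 for Snhg1, 0.83 for Snhg8, 0.70 for Snhg5, 0.64 for Snhg3, 0.57 for Snhg6 and 0.13 for Snhg4. These are descriptions over 10 points that share libraries and replicate sets. Among 10854 other genes with at least 5 CPM, those most like the mean of the 9 hosts over the 10 groups were Alg12 (r = 0.97), Irf2bp2 (0.96), Lman2 (0.96), 2410006H16Rik (0.96) and Akap8l (0.96). Alg12 is a mannosyltransferase of N-glycan assembly and Lman2 a cargo lectin of the early secretory pathway. Because the 5 were picked for likeness over groups that include the CPA groups, a rise with CPA is built into the choice. Their tests are therefore a description and no independent support. None of the 5 was called with CPA without the block. With it Alg12 passed in all 4 comparisons, at log2 changes of 1.51 and 0.99 at 12 h and 36 h in NIP and 1.40 and 1.11 in NIL. Lman2 (0.62 to 0.82) and 2410006H16Rik (2.04 to 2.34) then passed in all but NIP at 36 h, and Akap8l (0.58) and Irf2bp2 (0.57) at 36 h in NIL.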

How the data were processed

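Total RNA was depleted of ribosomal RNA with the KAPA RNA HyperPrep kit with RiboErase, per the labels' protocols. The authors deposited raw read counts per gene, 1 table per library, after steps for which their processing notes list HTSeq 0.6.1p1, Picard, TopHat2 2.1.1, Bowtie2 2.3.2 and the build GRCm38 (mm10). The strand setting and the annotation release are not given in the sources used here. The 5 summary lines of each table were kept out of library sizes and tests: 18.2% to 52.6% of alignments were not unique, 7.77% to 18.7% of reads met no feature and 0.156% to 0.458% were ambiguous, relative to gene reads and all summary classes together. Such reads are lost to hosts with near-identical copies or overlapping genes. The tables hold 0 mitochondrial genes.

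Groups followed the sample titles. One edgeR 4.0.16 quasi-likelihood model (R 4.3.3, limma 3.58.1) was fitted to all 20 libraries with 1 term per group and TMM factors (0.654 to 1.17) after edgeR's filter on low counts, which kept 14792 of 24421 genes. Adjusted p below 0.05 was called. The biological coefficient of variation was 27.5%, and 15.7% with the replicate number as a block. Replicate numbers pair the libraries: deviations from group means correlated for all 45 pairs of groups (r of 0.243 to 0.763, median 0.467), so blocked values are given where they change the call of a gene the text names. The 2 libraries of a group differed beyond counting noise (chi-square per degree of freedom 30.1 to 316). Alternatives were DESeq2 1.42.0, RLE factors, no TMM factors, no filter, Rn45s left out, other library sets and single libraries left out. The fit without the block was tested on simulated data for CPA at 12 h in NIL. These were drawn without a difference between replicate sets, so the simulation does not cover the pairing seen here.

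Named genes were the 9 members, the called genes of the pathway lists, the neighbours and snoRNA genes of each host and the 5 genes most like the members' mean. The members and the gene lists were chosen with earlier results of these data known, so no list is independent support. The limits given for log2 changes and differences come from the edgeR fit without the block. They reflect the spread between these libraries as well as counting error.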

Additional observations from a re-analysis of the deposited data

How the results depend on the processing

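The counts of host genes called depended on the fit. With the replicate block they were 4 (12 h) and 1 (36 h) in NIP and 4 and 5 in NIL, and 1 for NIP against NIL at 0 h. DESeq2 gave 4 and 1 in NIP, 5 in NIL at 36 h and 1 for the lines at 0 h. It called 7.78% and 4.74% of all genes in NIP, 4.81% in NIL at 36 h and 15.2% for the lines at 0 h. Without TMM factors 1 was called in NIP and 0 in NIL at 36 h, against 1.51% and 0.0676% of all genes. With only the compared groups in the fit 1 was called at 12 h and 0 at 36 h in NIL, against 0.460% and 0.0075% of all genes. The fit without both libraries highest in Rn45s left 1 library with 36 h of CPA in NIL, so its calls are not counted. Leaving out 1 library gave 0 to 2 at 12 h and 0 to 1 at 36 h in NIP, 0 to 1 at 12 h and 0 to 3 at 36 h in NIL, and 0 in the other comparisons. The cause of these differences was not tested, and fits with libraries left out also held fewer libraries. For those fits the share of all genes called is not given, so fewer host calls cannot be told from fewer calls among all genes. The block changed no other call of a host.

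Of 362 values for single hosts under alternatives that kept all replicates of the groups or left out both Rn45s-rich libraries, 336 kept direction and side of the threshold, 18 newly passed, 7 no longer passed and 1 changed sign, Snhg4 at 12 h in NIP, at −0.0024 by DESeq2. Leaving out 1 library turned the sign of small changes: Snhg3 at 12 h in NIL (−0.38 to 0.49) and at 36 h in NIP (−0.13 to 0.29), Snhg4 at 12 h in NIP (−0.18 to 0.23), 36 h in NIL (−0.032 to 0.38) and 36 h in NIP (−0.17 to 0.67), Snhg8 at 12 h in NIL (−0.050 to 0.54) and Zfas1 at 36 h in NIP (−0.48 to 0.68).

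Without TMM factors the median of all genes moved to 0.34 with CPA at 36 h in NIP, against 0.03 with them, and to −0.34 for NIP against NIL at 36 h, against −0.01. Calls with CPA were then 175 higher and 44 lower at 12 h and 199 and 24 at 36 h in NIP, and 107 and 7 at 12 h and 10 and 0 at 36 h in NIL. With TMM factors they were 438 and 258, 197 and 147, 230 and 97, and 65 and 76. The smallest host counts, 20 reads of Snhg4 and 35 of Snhg3, limit what could be seen for those genes.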
